A study of Mus musculus with 8 samples.

Results

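The 10 genes described here are the pluripotency genes Pou5f1, Nanog, Sox2, Utf1, Dppa4, Dppa5a, Zfp42, Lin28a, Slc7a3 and Pou3f1. They were listed by name, by no threshold on their values but with earlier results of these data known, and all 10 were present among the 55422 features of the count matrices. Their levels were followed in mouse chimaeric embryos at embryonic day (E) 7.5 and E8.5 by single-cell RNA sequencing of the 3′ ends of transcripts, with unique molecular identifiers (UMIs) to count molecules. Embryonic stem (ES) cells lacking Tet1, Tet2 and Tet3 (Tet-TKO) on a C57BL/6J-129Sv background, which carried a CAG promoter-driven H2B-tdTomato, were injected into C57BL/6J host blastocysts. Embryos were recovered from CD1 recipients, pooled and sorted, so that tdTomato-positive cells were Tet-TKO and tdTomato-negative cells were WT host cells from the same embryos. Each genotype had 1 library at E7.5. For E8.5, Tet-TKO had 4 libraries and WT host had 2. Genotype cannot be told apart from the history of the ES cells or from the difference in strain. The Tet-TKO cells descend from 1 ES cell line, and ES cells give rise to the embryo proper rather than to trophoblast, so extraembryonic ectoderm is a lineage of the host. Nothing in the labels states that libraries of a group came from separate litters or days, so that p-values measure the spread between these libraries, which may be technical.

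Pluripotency is the capacity of the epiblast, the founder tissue of the embryo, to give rise to all lineages, and it rests on a circuit of transcription factors headed by OCT4 (encoded by Pou5f1), NANOG and SOX2. As the epiblast gastrulates the circuit is switched off, except in the primordial germ cells, while SOX2 is retained in the neural lineage and OCT4 lingers in the caudal progenitors. TET enzymes oxidise 5-methylcytosine at enhancers and promoters, and DNA methylation is one of the mechanisms that keeps pluripotency and germline genes silent after gastrulation.

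The circuit binds its own genes through a composite site for OCT4 and SOX2. The 3 promoters shown are those with a match to the OCT4 part of that site. RefSeq start sites (GRCm38.p6, the build of mm10) were available for 6 of the 10 genes, and the 250 bases before each start were searched on both strands for 2 short motifs, which did not share letters in the windows printed. The octamer core, the part of the composite site that OCT4 contacts, was written as TTTGCAT. The core of the SOX element was written as ACAATG. Windows are written 5′ to 3′ in the direction of transcription, with matches in capitals.
Nanog, chr6:122707239-122707488, plus strand: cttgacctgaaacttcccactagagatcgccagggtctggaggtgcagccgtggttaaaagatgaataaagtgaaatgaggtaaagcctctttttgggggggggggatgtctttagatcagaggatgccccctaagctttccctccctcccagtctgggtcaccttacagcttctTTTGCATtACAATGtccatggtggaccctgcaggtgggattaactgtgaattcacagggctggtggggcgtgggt
Sox2, chr3:34649745-34649994, plus strand: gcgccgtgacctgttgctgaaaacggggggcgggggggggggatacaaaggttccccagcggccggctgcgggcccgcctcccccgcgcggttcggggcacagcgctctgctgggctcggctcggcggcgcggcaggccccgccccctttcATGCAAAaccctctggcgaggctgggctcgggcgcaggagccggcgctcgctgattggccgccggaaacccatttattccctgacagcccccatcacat
Zfp42, chr8:43307010-43307259, minus strand: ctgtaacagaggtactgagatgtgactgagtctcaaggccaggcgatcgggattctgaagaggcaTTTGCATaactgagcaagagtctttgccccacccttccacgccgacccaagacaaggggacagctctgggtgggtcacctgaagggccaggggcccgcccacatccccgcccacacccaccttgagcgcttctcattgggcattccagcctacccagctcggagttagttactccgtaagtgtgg
The octamer core lay at position -75 in Nanog, where a SOX core followed 1 base later, at position -99 in Sox2 and at position -185 in Zfp42. The windows of Sox2 and Zfp42 held no SOX core. A second RefSeq start of Nanog (window chr6:122707315-122707564) held the same octamer core, at position -151, and the same SOX core. Of all 32851 windows of this length in the table, 1355 (4.12%) held the octamer core and 3512 (10.7%) the SOX core. The windows of Pou5f1, Utf1 and Lin28a held no octamer core, and that of Lin28a held a SOX core. A second RefSeq start of Pou5f1 (window chr17:35508557-35508806) held a SOX core and no octamer core. Sox2 had 27 CpG dinucleotides in its window, Utf1 14, Zfp42 9, Pou5f1 8, Lin28a 7 and Nanog 3, against a median of 6. In mm10 coordinates Pou5f1 lies at chr17:35506018-35510772, Nanog at chr6:122707489-122714633, Sox2 at chr3:34650405-34652461, Utf1 at chr7:139943789-139945112 and Dppa4 at chr16:48283733-48294237, all on the plus strand. Dppa5a (chr9:78367052-78368177), Zfp42 (chr8:43295063-43306980), Lin28a (chr4:134003330-134018841) and Slc7a3 (chrX:101079210-101086020) lie on the minus strand, and Pou3f1 (chr4:124656807-124660655) on the plus strand. Sox2 lies within Sox2ot on the same strand, so that reads of the 2 genes may be hard to assign, and Pou5f1, Lin28a and Pou3f1 overlap a gene of the opposite strand. Methylation was not measured in these libraries, and a match is a description of the sequence only.

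Between 1008 and 9545 cells per library passed quality control, from total counts of 65601218 to 136982886 UMIs. Libraries 3 and 4 of the E8.5 Tet-TKO cells stood apart from the rest with 2302 and 1008 cells at medians of 40400 and 68930 UMIs per cell, against 12180 to 20740 in the other 6 libraries. tdTomato was measured at 71.5 to 145 CPM (UMI counts scaled to the same library total) in the Tet-TKO libraries and at 0.444 to 0.938 CPM in the WT host libraries. Tags of the targeted genes were found in both genotypes at E8.5, with Tet1 at 9.92 to 20.9 CPM in Tet-TKO and 22.55 and 20.4 CPM in WT host cells, Tet2 at 5.55 to 10.5 against 4.67 and 4.63 CPM, and Tet3 at 22.5 to 37.5 against 23.1 and 23.2 CPM. Where the lesions lie relative to the 3′ tags is not given in the sources used here, so these counts check nothing. Any pair of libraries shared at most 28 cell barcodes, and at most 0.434% of the barcodes of the smaller library. Cells were grouped into 36 classes at E8.5 and 27 at E7.5 by clustering without the 10 genes. A class named "X-like" was named from markers, and the unnamed clusters are given by number and by their leading genes.

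Most of the 10 genes stood far lower at E8.5 than at E7.5 in both genotypes, with Sox2 and Lin28a as the exceptions. Levels in this and the next paragraph are CPM over all cells of a library, and in such sums fewer cells of a type and less RNA per cell cannot be told apart. Pou5f1 stood at 410 CPM in Tet-TKO and 186 CPM in WT host cells at E7.5. A day later it was at 25.9, 18.5, 8.91 and 11.2 CPM in the 4 Tet-TKO libraries and at 17.3 and 5.73 CPM in the 2 WT host libraries. The groups overlapped, and 2.17 to 6.32% of the E7.5 level was left in Tet-TKO against 3.08 to 9.26% in WT host cells. Nanog, the homeodomain factor of the naive state, was at 17.7 CPM in Tet-TKO and 8.35 CPM in WT host cells at E7.5, and at 0.462 to 1.57 CPM and 0.363 and 0.907 CPM at E8.5. Utf1, a chromatin-bound cofactor of embryonic stem cells, left 1.01 to 2.16% of 112 CPM in Tet-TKO and 2.36 to 6.22% of 175 CPM in WT host cells. Dppa5a, which encodes a KH domain RNA-binding protein, and Slc7a3, a cationic amino acid transporter that imports arginine, were intermediate. For Dppa5a 4.27 to 10.3% was left in Tet-TKO and 6.77 to 17.5% in WT host cells, and for Slc7a3 the means were 11.9% and 23.2%. As a ratio between the genotypes, the shares left lay furthest apart for Dppa4 and Zfp42. Dppa4, which encodes a SAP domain nuclear protein associated with active chromatin, kept 17.8 to 42.2% in Tet-TKO against 3.38 to 8.09% in WT host cells. Zfp42, which encodes the zinc finger protein REX1, kept 21.2 to 29.6% of a Tet-TKO level of 2.22 CPM, and 2.62 to 6.90% of a WT host level of 30.4 CPM. These shares depend on the make-up of the E7.5 WT host library, in which ExE ectoderm-like cells, a trophoblast class nearly absent from Tet-TKO, held 90.7% of the Dppa4 and 92.7% of the Zfp42 UMIs. Without those cells Dppa4 was at 2.95 CPM at E7.5 and at 0.871 CPM at E8.5 in WT host cells, and at 21.7 and 6.25 CPM in Tet-TKO, so that the contrast in the share left was no longer seen. ExE ectoderm-like cells held 71.9% of the Utf1, 71.4% of the Pou3f1 and 50.3% of the Sox2 UMIs of that library too. Pou3f1, a POU factor of the late epiblast and the neural lineage, kept 26.9 to 37.3% and 19.7 to 20.7%. The level of Lin28a, an RNA-binding protein that blocks let-7 maturation, was 83.6 to 116% of that at E7.5 in Tet-TKO and 73.6 to 79.2% in WT host cells. Sox2 stood at 109 to 175% and 83.2 to 95.9%. With 1 library per genotype at E7.5, none of these differences between stages has a test.

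**Figure D1:**
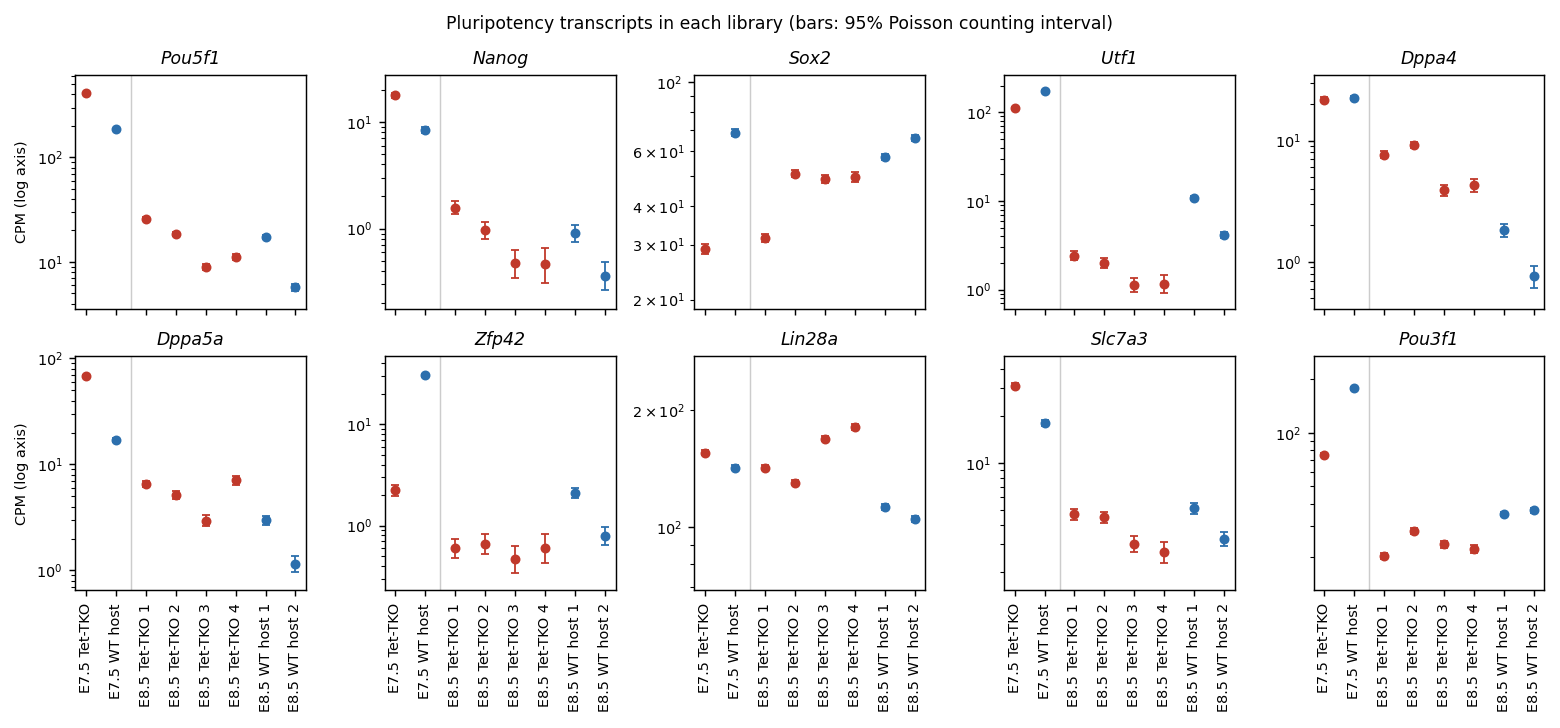
Levels of the 10 genes in each of the 8 libraries, in CPM on a log axis, with 95% Poisson intervals that cover counting error only. Pou5f1, Nanog and Utf1 are lower in every E8.5 library than in either E7.5 library, Lin28a stays between 105 and 181 CPM throughout, and for Dppa4 the lowest of the 4 E8.5 Tet-TKO points lies above the higher of the 2 WT host points.

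At E8.5 the genotypes were compared with edgeR's quasi-likelihood test on the library sums, with a call at an adjusted p under 0.01 and a log2 fold change of at least 1 in size. None of the 10 genes was called in either direction, beside 0.588% of the 21074 genes tested called higher in Tet-TKO and 2.05% called lower. At an unadjusted p under 0.05, 3 of the 10 genes were higher in Tet-TKO (Dppa4, Dppa5a and Lin28a) and 4 were lower (Sox2, Utf1, Zfp42 and Pou3f1), beside 12.2% and 14.5% of all genes tested. DESeq2 called 1 gene higher, Dppa4, and 1 lower, Utf1, beside 2.12% and 4.74% of all genes. Every Tet-TKO library lay above both WT host libraries for 2 genes, Dppa4 and Lin28a, and below both for 4 genes, Sox2, Utf1, Zfp42 and Pou3f1. Among all genes tested these shares were 23% and 17.9%. The median log2 fold change was 0.10 over the 10 genes and 0.02 over all genes tested.

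Dppa4 was measured at 7.66, 9.18, 3.88 and 4.26 CPM in the Tet-TKO libraries and at 1.81 and 0.757 CPM in the WT host libraries. The lowest Tet-TKO library lay above the higher WT host library, with a log2 fold change of 2.24 (SE 0.57, adjusted p = 0.0526 with edgeR and 0.000128 with DESeq2). It was 2.97 without WT host library 1 and 1.75 without WT host library 2, and without ExE ectoderm-like cells the ratio of the means was 7.17 in place of 4.86. Utf1 was at 2.42, 1.99, 1.13 and 1.15 CPM in Tet-TKO and at 10.9 and 4.13 CPM in WT host cells. The difference was -2.20 on the log2 scale (SE 0.48, adjusted p = 0.0331 with edgeR and 0.000155 with DESeq2), and -1.37 without WT host library 1. Lin28a was at 142, 130, 169 and 181 CPM against 113 and 105 CPM, a log2 fold change of 0.42 (SE 0.11, adjusted p = 0.0527). Pou3f1 was at 20.3, 28.1, 23.6 and 22.2 CPM against 34.9 and 36.7 CPM, a log2 fold change of -0.68 (SE 0.16, adjusted p = 0.0416), which was under the size required for a call. None of these 4 passed the threshold for a call with edgeR, and the other 6 had larger adjusted p-values. Sox2 was at 31.6, 50.7, 48.8 and 49.5 CPM against 57.2 and 65.9 CPM (adjusted p = 0.115), and Dppa5a at 6.52, 5.16, 2.94 and 7.07 CPM against 2.97 and 1.15 CPM (adjusted p = 0.144). Zfp42 was at 0.600, 0.659, 0.472 and 0.600 CPM against 2.10 and 0.796 CPM (adjusted p = 0.0673). Slc7a3 gave 4.68, 4.47, 3.02 and 2.66 CPM against 5.10 and 3.26 CPM (adjusted p = 0.705). Pou5f1 and Nanog overlapped between the genotypes, with log2 fold changes of 0.45 (SE 0.59, adjusted p = 0.658) and 0.43 (SE 0.65, adjusted p = 0.701). Without WT host library 2 they were -0.12 and -0.07, without WT host library 1 1.43 and 1.21, and without Tet-TKO library 1 0.09 and -0.06.

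Dppa4 was the gene of the 10 with calls in the most classes, and its calls in the main edgeR fit lay among endothelial and blood-forming cells. The same test was run on sums per class and library, in the 32 classes with at least 10 cells in at least 2 libraries of each genotype, with p-values adjusted over all genes of a class. Of 167 pairs of gene and class that were tested for the 10 genes, 6 were called higher in Tet-TKO (3.59%) and 2 lower (1.2%), beside 0.237% and 0.355% of all 313728 pairs. Dppa4 made up 5 of the 6 higher calls. DESeq2 called 8 pairs higher, 7 of them Dppa4, and 1 lower, beside 0.475% and 0.58% of all pairs. Its calls of Dppa4 were in the 5 classes called by edgeR and also in Allantois-like and Pharyngeal mesoderm-like cells. Without Tet-TKO library 3 or without WT host library 2 the edgeR count of higher calls was 2, and that of lower calls was 1 and 0.

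In Endothelium-like cells, which are led by Lyve1, Emcn, Icam2 and Cdh5, Dppa4 was at 43.4, 53.8, 30.8 and 35.1 CPM in the 4 Tet-TKO libraries and at 7.14 and 5.67 CPM in the 2 WT host libraries. The log2 fold change was 2.72 (SE 0.31, adjusted p = 0.00099), beside 0.25% of the genes tested in this class called higher. In cluster 2, which is unnamed and is led by the red cell genes Hbb-bh0, Car1, Gata1 and Klf1, the Tet-TKO libraries 1 to 3 gave 27.6, 42.6 and 22.7 CPM and the WT host libraries 0.842 and 0.743 CPM. The log2 fold change there was 5.22 (SE 0.36, adjusted p = 7.32e-05), beside 0.959% of its genes called higher. Erythroid-like cells, marked by embryonic and adult globins, gave 25.4 and 19.2 CPM in the 2 Tet-TKO libraries with enough cells (53 cells in all) and 0.785 and 0.379 CPM in WT host cells (2059 cells), a log2 fold change of 5.04 (SE 0.45, adjusted p = 0.00611), beside 0.24% of its genes called higher. In these 3 classes, and in the 2 that follow, the genotypes did not overlap. In Haematoendothelial progenitor-like cells, led by Gja4, Etv2 and Kdr, Dppa4 was at 8.78, 13.4, 13.7 and 21.8 CPM against 1.00 and 0.330 CPM. In cluster 17, led by Rab27b, Myb, Plek, Runx1 and Spi1, it was at 22.4, 24.7, 37.0 and 41.6 CPM against 6.36 and 1.46 CPM. The log2 fold changes were 4.19 (SE 0.55, adjusted p = 0.00347) and 2.95 (SE 0.44, adjusted p = 0.00545), beside 0.376% and 0.188% of the genes of these classes called higher.

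These calls of Dppa4 kept their direction in every alternative run, and some alternatives ended them. They stood in 15 of 17 alternatives in Endothelium-like cells, in 14 of 17 in Haematoendothelial progenitor-like cells and in cluster 17, in 16 of 17 in cluster 2 and in 8 of 12 in Erythroid-like cells. In Endothelium-like cells the adjusted p was 0.0282 without WT host library 1 and 0.04 without WT host library 2. In Haematoendothelial progenitor-like cells it was 0.0557 and 0.0685 without those libraries, with log2 fold changes of 5.24 and 3.69, and 0.0131 without Tet-TKO library 3. In cluster 17 the log2 fold change of Dppa4 was 4.40 without WT host library 1 and 2.25 without WT host library 2 (adjusted p = 0.0807), and the adjusted p was 0.0159 without Tet-TKO library 3. In Erythroid-like cells, where libraries 2 and 3 alone stood for Tet-TKO, the adjusted p was 0.0297 without Tet-TKO library 2 and 0.0117 without library 3, and each of these fits assumes that the 1 Tet-TKO library left varies like the WT host libraries. Leaving out libraries 1 and 2 or 3 and 4 together repeats these fits, so that the 4 losses among 12 come from 2 separate fits. Leaving out Tet-TKO library 1 or 4, or summing the Tet-TKO libraries, repeats the main fit there, so that these calls add nothing to it. The 12 alternatives hold no fit with at least 3000 UMIs per cell, with tdTomato matching the sort or with doublets removed. The call in cluster 2 held with each library left out and was lost with no filter on low counts (adjusted p = 0.0201). Leaving out Tet-TKO library 4, or asking for at least 30 cells per sum, repeats the main fit of cluster 2.

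Marker sums of the same cells are given beside these levels of Dppa4, and several differed between the genotypes. In Endothelium-like cells the summed erythroid markers were at 7.99 to 82.1 CPM in Tet-TKO and at 583 and 1647 CPM in WT host cells, and the summed blood progenitor markers at 69.2 to 107 and at 140 and 157 CPM. The gap in erythroid markers is not particular to endothelial or blood-forming classes. In NMP-like cells these markers summed to 9.75 to 51.5 CPM in Tet-TKO against 636 and 1471 CPM in WT host cells. In Epiblast-like cells they summed to 36.2 and 57.9 CPM against 623.5 and 1415 CPM. The summed epiblast markers in Endothelium-like cells were at 47.9 to 61.7 CPM in Tet-TKO and at 63.1 and 68.7 CPM in WT host cells, and the extraembryonic ectoderm markers at 0 to 5.88 and at 4.38 and 6.33 CPM. Neither of these sums was higher in a Tet-TKO library than in both WT host libraries. The summed germ cell markers did lie higher in Tet-TKO there, at 109 to 141 CPM against 99.7 and 84.0 CPM, with 2 or 3 of the 6 markers detected in each Tet-TKO library and 4 and 3 in WT host cells. In Haematoendothelial progenitor-like cells the germ cell markers summed to 71.1, 59.6, 62.9 and 45.0 CPM in Tet-TKO and to 48.4 and 56.8 CPM in WT host cells, with Tet-TKO libraries 1 to 3 above both. In cluster 17 they overlapped, at 51.4 to 59.6 CPM against 47.9 and 61.1 CPM. They also overlapped in cluster 2 (6.81 to 24.2 CPM against 16.2 and 8.48 CPM) and in Erythroid-like cells (29.7 and 6.39 CPM against 15.3 and 9.35 CPM). In Haematoendothelial progenitor-like cells the endothelium markers summed to 155 to 193 CPM in Tet-TKO and to 272 and 344 CPM in WT host cells, the erythroid markers to 7.28 to 40.8 against 519 and 1403 CPM, and the blood progenitor markers to 62.2 to 105 against 135 and 142 CPM. In cluster 17 the endothelium markers summed to 54.3 to 75.1 against 99.4 and 142 CPM, lower in every Tet-TKO library. Its erythroid markers summed to 4925 to 9787 CPM against 5597 and 7181 CPM, and the epiblast markers to 39.6 to 67.6 CPM against 81.7 and 117 CPM. In cluster 2 the erythroid markers summed to 36650, 53250 and 61770 CPM against 66290 and 105800 CPM, and in Erythroid-like cells to 26850 and 60790 CPM against 110400 and 172700 CPM. The part of these marker differences in the levels of Dppa4 was not tested.

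**Figure D2:**
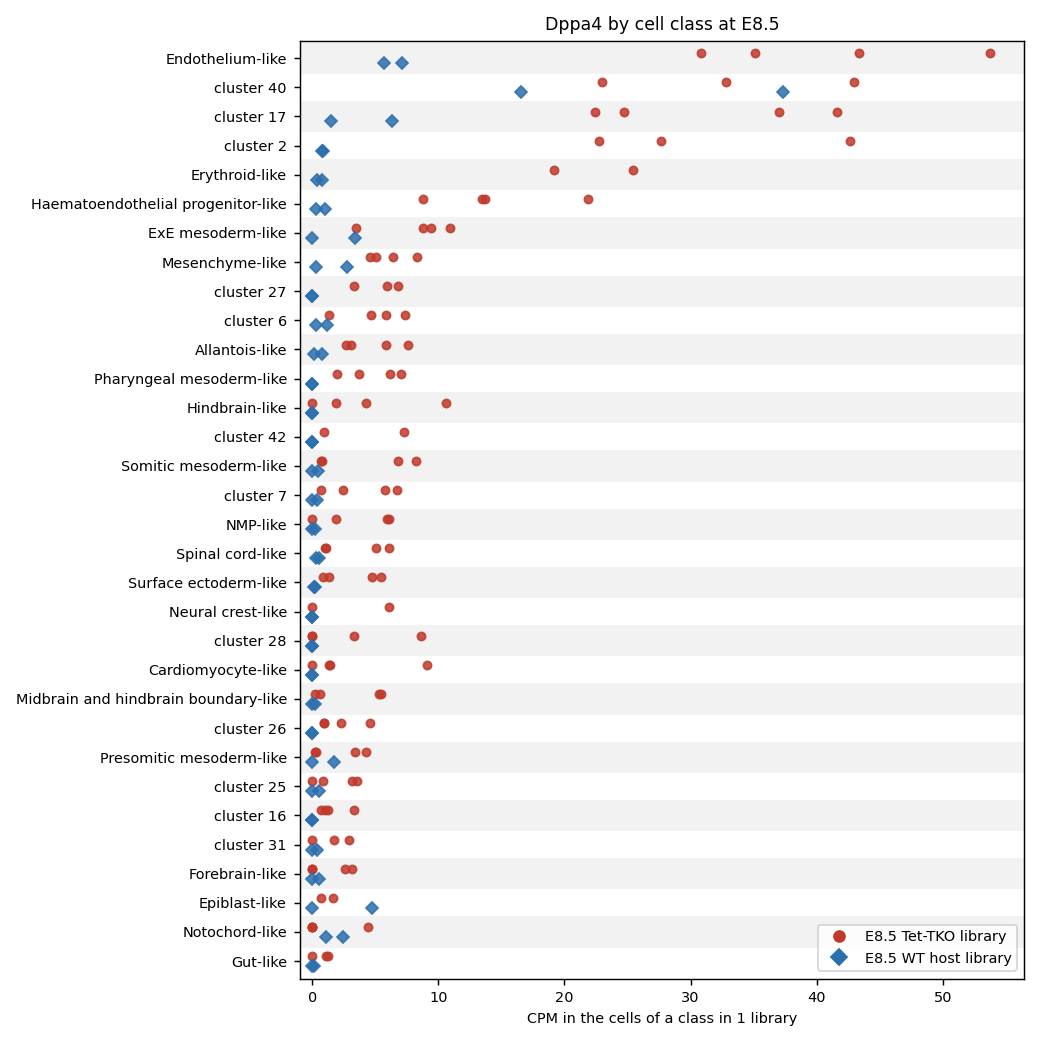
Dppa4 in each E8.5 class, in CPM on a linear axis, with 1 point per library (red circles Tet-TKO, diamonds WT host). The Tet-TKO libraries lie furthest from the WT host libraries in Endothelium-like cells (40.8 against 6.40 CPM on average) and in clusters 17 and 2, whereas in cluster 40 they overlap.

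When the cells of these 5 classes, put together because Dppa4 was called in them, were summed, Dppa4 stood at 21.5, 29.3, 24.0 and 29.4 CPM in the Tet-TKO libraries and at 1.95 and 0.884 CPM in those of WT host cells. The means were 26.1 ± 3.95 CPM (SD, n = 4) and 1.42 ± 0.753 CPM (n = 2). They held 37.9, 44.3, 55.1 and 48.0% of the Dppa4 UMIs of the Tet-TKO libraries in 11.7, 11.9, 7.78 and 7.04% of the cells. In the WT host libraries 32.4 and 44.8% of the Dppa4 UMIs came from 25.8 and 33.3% of the cells. These classes thus made up a smaller share of the cells in every Tet-TKO library than in either WT host library. Their mix differed as well, since 1723 and 2059 of the WT host cells in the fits were of cluster 2 and Erythroid-like, against 240 and 53 of the Tet-TKO cells. The ratio of the means of these sums was 18.4, between those of the single classes, which were 6.37 in Endothelium-like cells, 8.03 in cluster 17, 21.7 in Haematoendothelial progenitor-like cells, 38.3 in Erythroid-like cells and 39.1 in cluster 2.

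Dppa4 was tested in 18 classes, and its log2 fold change was above 0 in each, with a median of 3.28. Every Tet-TKO library lay above every WT host library in 15 of the 18, beside 12% of all pairs tested. These counts are no support for a direction, because a gene with low counts enters the test of a class through the genotype in which it is higher: WT host cells had 0 Dppa4 UMIs in 1 of the 18 classes and 1 UMI in each of 4 others. In Pharyngeal mesoderm-like cells Dppa4 was at 3.73, 1.995, 7.05 and 6.20 CPM in Tet-TKO, with no UMI in the 650 WT host cells. Against the floor of 3 UMIs over that group, 0.355 CPM, this was at least 13.4-fold higher in Tet-TKO. The adjusted p was 0.0257 with edgeR, not called, and 0.00222 with DESeq2, called. Allantois-like cells gave 5.83, 7.56, 3.05 and 2.65 CPM against 0.779 and 0.174 CPM. There the adjusted p was 0.0667 with edgeR, not called, and 0.000455 with DESeq2, called. In the caudal NMP-like cells (neuromesodermal progenitors) Dppa4 was at 6.05, 5.91, 1.91 and 0 CPM against 0 and 0.255 CPM. In Gut-like cells no library exceeded 1.22 CPM. Among the Tet-TKO cells the order of Dppa4 levels ran from Endothelium-like (40.8 ± 10.1 CPM, n = 4) through cluster 40 (32.9 CPM), cluster 17 (31.4 ± 9.33 CPM, n = 4), cluster 2 (31.0 ± 10.4 CPM, n = 3) and Erythroid-like cells (22.3 ± 4.43 CPM, n = 2) to Haematoendothelial progenitor-like cells (14.5 ± 5.43 CPM, n = 4). Neighbours in this order down to Erythroid-like cells differed by less than the larger of their SDs. Among the WT host classes with at least 10 cells in both libraries cluster 40 came first at 26.9 ± 14.7 CPM (n = 2), followed by cluster 44, a cluster of low depth with red cell genes, at 7.75 ± 10.9 CPM and Endothelium-like cells at 6.40 ± 1.04 CPM. The 136 ExE ectoderm-like cells of WT host library 1, outside this order, had Dppa4 at 34.4 CPM (111 UMIs).

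At E7.5 the library sums of Dppa4 were alike, 21.8 CPM in Tet-TKO and 22.4 CPM in WT host cells, and their make-up was not. In the WT host library 90.7% of the Dppa4 UMIs lay in the 1839 ExE ectoderm-like cells (69.4 CPM), a trophoblast lineage with 11 cells in the Tet-TKO library. Without ExE ectoderm-like cells Dppa4 was at 21.7 CPM in Tet-TKO and 2.95 CPM in WT host cells. Tet-TKO was higher in 20 of 21 classes shared at this stage, with medians of 18.6 CPM and 1.41 CPM for Dppa4. In Erythroid-like cells the values were 29.4 and 3.53 CPM and in Haematoendothelial progenitor-like cells 21.3 and 4.90 CPM. Epiblast-like cells stood at 44.0 CPM in Tet-TKO and at 14.9 CPM in WT host cells. Dppa5a was higher in Tet-TKO in 20 of the 21 classes too, with medians of 46.1 and 18.8 CPM. These E7.5 values come from 1 library per genotype and have no replicate check.

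**Figure D3:**
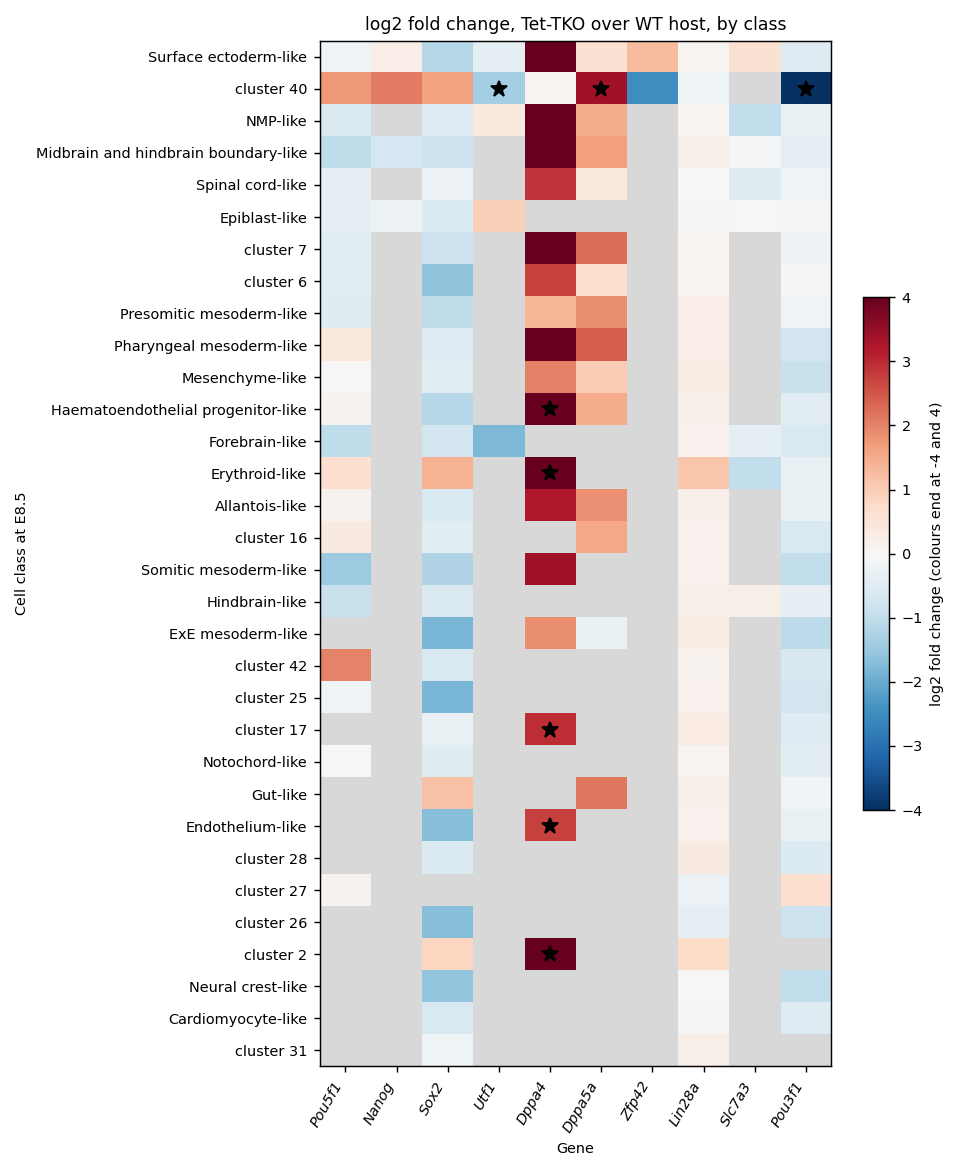
Log2 fold changes (Tet-TKO over WT host) of the 10 genes in the 32 E8.5 classes fitted, with stars for the 8 calls and grey for pairs that were not tested, and colours that end at -4 and 4. Dppa4 holds 5 of the stars, all in endothelial or blood-forming classes, and Sox2 is below 0 in 27 of 31 classes.

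Pou5f1 was not called in any class in the main fit, and its libraries differed within each genotype. It was tested in 22 classes, with log2 fold changes above 0 in 10 and below 0 in 12 and a median of -0.18. Of these, 2 had an unadjusted p under 0.05, beside 11.8% of all pairs, and the main edgeR fit and DESeq2 called none. Other alternatives called it in both directions. With no filter on low counts it was higher in clusters 40 and 42 and lower in Midbrain and hindbrain boundary-like cells. Without Tet-TKO libraries 1 and 2 it was lower in NMP-like, Presomitic mesoderm-like and Spinal cord-like cells. In NMP-like cells Pou5f1 was at 101, 67.9, 24.3 and 27.0 CPM in Tet-TKO and at 126 and 43.8 CPM in WT host cells, with overlapping groups (adjusted p = 0.731). Presomitic mesoderm-like cells gave 58.3, 27.9, 13.4 and 27.3 CPM against 69.2 and 21.3 CPM, and Spinal cord-like cells 71.9, 52.1, 14.1 and 14.2 CPM against 80.7 and 21.9 CPM. In all 3 of these classes the highest library was WT host library 1, and Tet-TKO libraries 3 and 4 were among the lower ones. The lowest adjusted p was that of cluster 42, led by Lrrc17, Wnt8a and Hoxc11, at 62.8 and 39.8 CPM against 23.4 and 0 CPM (log2 fold change 1.99, SE 0.50, adjusted p = 0.019). That fit held 30 and 53 cells of Tet-TKO libraries 1 and 2 and 11 and 13 WT host cells. Tet-TKO libraries 3 and 4, the lower 2 in Pou5f1 summed whole, had too few cells of this cluster. Over all classes, WT host library 1 exceeded library 2 in 33 of 34 classes for Pou5f1, with a median log2 ratio of 1.55, and Tet-TKO library 1 exceeded library 3 in 25 of 28, with a median of 1.73. For Sox2 the same count between the WT host libraries was 14 of 34. In the libraries summed whole, Tet-TKO libraries 1 and 2 had 1.93 times and libraries 3 and 4 0.874 times the mean WT host level of Pou5f1. The exact stage of the embryos behind each library is not given in the labels.

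**Figure D4:**
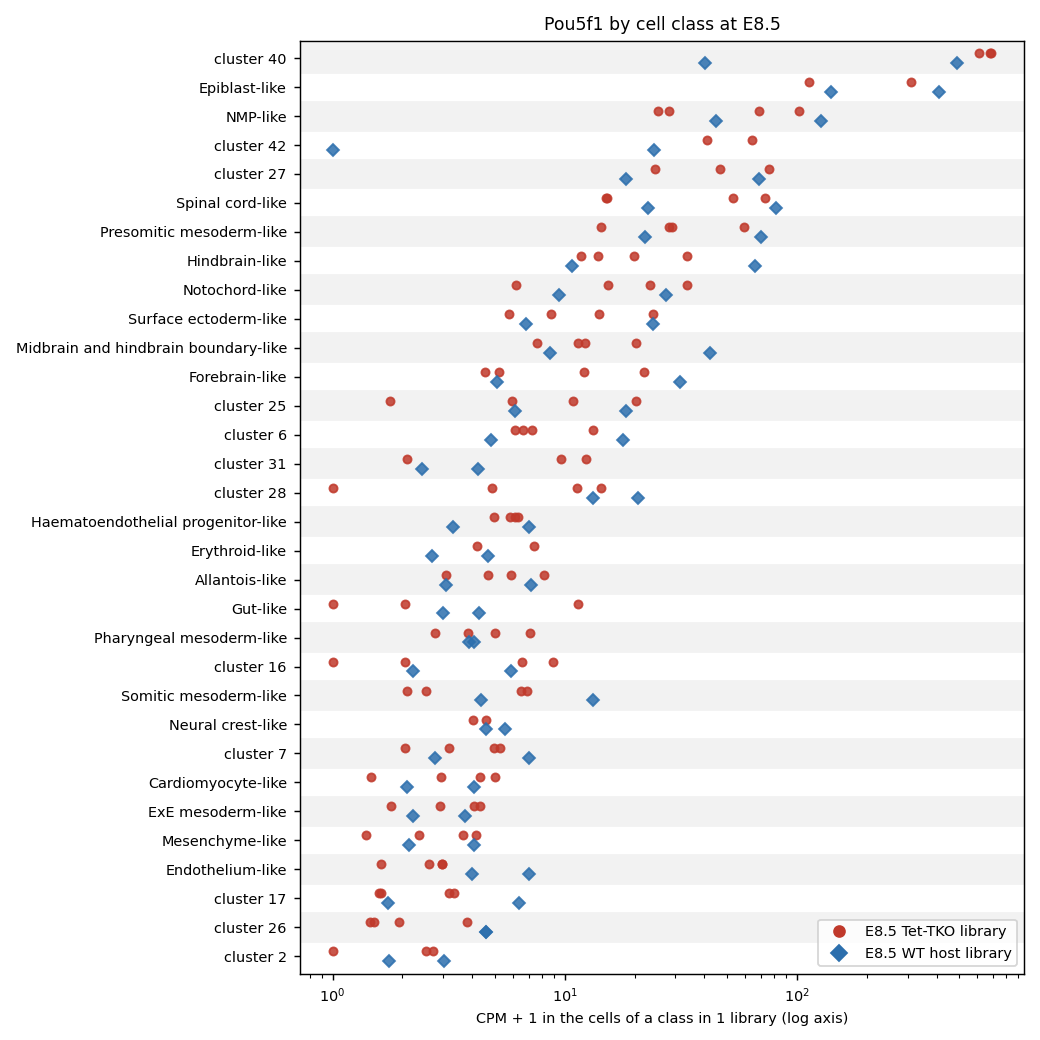
Pou5f1 in each E8.5 class, as CPM + 1 on a log axis, with 1 point per library (red circles Tet-TKO, diamonds WT host). Levels are highest in cluster 40 and in Epiblast-like and NMP-like cells, and in NMP-like cells the genotypes overlap (24.3 to 101 CPM in Tet-TKO, 43.8 and 126 CPM in WT host). In cluster 42 they do not (39.8 and 62.8 against 0 and 23.4 CPM), with only Tet-TKO libraries 1 and 2 and with 11 and 13 WT host cells.

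The NMP-like class held 19.3 to 26.7% of the Pou5f1 UMIs of each Tet-TKO library, and 22.0 and 23.7% of those of the WT host libraries. By level, Tet-TKO cells had Pou5f1 at 658 ± 45.8 CPM (SD, n = 3) in cluster 40, 210 ± 140 CPM (n = 2) in Epiblast-like and 55.1 ± 36.6 CPM (n = 4) in NMP-like cells. WT host cells had it at 274 ± 189 CPM in Epiblast-like cells, 264 ± 318 CPM in cluster 40 and 84.8 ± 58.1 CPM in NMP-like cells (n = 2 each). These SDs hold the gap between the WT host libraries, which is shared by the classes. Within each WT host library Epiblast-like cells lay above NMP-like cells, whereas the place of cluster 40 differed between the libraries. Over the 31 classes with enough cells, the genes whose class means were most alike to those of Pou5f1 in both genotypes were Rps4x (mean Pearson's r 0.798), Rps20 (0.773), Mkrn1 (0.766), Map7d3 (0.756) and Rps27a (0.744), of 9539 genes compared. Of the other pluripotency genes Utf1 came nearest, at rank 30 (0.696), followed by Slc7a3 at rank 60 (0.657) and Sox2 at rank 130 (0.597). Dppa4 was at rank 3610 (0.116). The class means share libraries and depth, and these correlations across classes are given as a description.

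A class with raised epiblast markers was found at E8.5. None of the 7 of the 10 genes tested in it was called between genotypes in the main edgeR fit or with DESeq2. Of all genes tested in these cells, edgeR called 0.0434% higher and 0.101% lower. An unadjusted p under 0.05 was found with edgeR for 2 of the 7, Utf1 and Sox2, beside 11.8% of all pairs over all classes. Epiblast-like cells, led by Pim2, Fgf5 and Tdgf1, numbered 96, 111, 0 and 1 in the Tet-TKO libraries and 30 and 23 in the WT host libraries. Tdgf1 had no UMI in these cells in library 2 of either genotype. Classes were clustered and named separately at each stage, so descent from the E7.5 class of this name was not tested. These were 1.36, 1.16, 0 and 0.0992% of the cells against 0.363 and 0.254%, and 0 cells in Tet-TKO library 3 allow a share of up to 0.160%. Tet-TKO libraries 1 and 2 thus lay above both WT host libraries in this share and library 3 below them, whereas the 1 cell of 1008 in library 4 has an exact 95% interval of 0.00251 to 0.552%, which holds both WT host shares. Pou5f1 in these cells was at 309 and 111 CPM in Tet-TKO and at 408 and 140 CPM in WT host cells, with library 1 above library 2 in both. Utf1 was at 45.6 and 29.6 CPM against 26.1 and 13.0 CPM (log2 fold change 0.96, SE 0.41, adjusted p = 0.476), and Nanog at 27.4 and 15.9 CPM against 21.3 and 35.8 CPM. Sox2 was at 185 and 214 CPM against 247 and 371 CPM, Slc7a3 at 55.4 and 30.4 CPM against 40.3 and 52.1 CPM, and Pou3f1 at 220 and 223 CPM against 166 and 299 CPM. Of the genes given here, Utf1 alone was higher in each Tet-TKO library than in each WT host library, and Sox2 and Lin28a were lower in each (Lin28a at 169 and 172 CPM against 175 and 195 CPM). Of all genes tested in these cells, 16.8% were higher in each Tet-TKO library in this way and 24.8% lower. At E7.5 the class held 1146 cells (20.8%) in Tet-TKO and 47 cells (0.658%) in WT host cells, with Pou5f1 at 820 and 688 CPM. In the E7.5 WT host library 41.6% of the Pou5f1 UMIs and 76.0% of the Slc7a3 UMIs lay instead in a cluster of 1084 cells led by Elavl3, Tal2 and Lhx5, with Pou5f1 at 522 CPM, Utf1 at 231 CPM and Dppa4 at 0.326 CPM. The Tet-TKO library had 4 cells in it.

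The remaining 3 calls were in cluster 40, in which Dppa5a was higher, and Pou3f1 and Utf1 lower, in Tet-TKO. This unnamed cluster, led by Dppa3, Rhox9, Dppa5a, Dnd1, Utf1, Rhox6 and Elf5, carries markers of germ cells and of extraembryonic ectoderm together. It held 20, 43, 14 and 6 Tet-TKO cells and 19 and 55 WT host cells, and Tet-TKO library 4 was left out of its fit for its few cells. Dppa5a was at 459, 403 and 207 CPM in Tet-TKO against 108 and 18.2 CPM (log2 fold change 3.35, SE 0.58, adjusted p = 0.00254). Utf1 was at 95.1, 165 and 124 CPM against 340 and 355 CPM (-1.37, SE 0.27, adjusted p = 0.006), and Pou3f1 at 0, 0 and 17.7 CPM against 74.6 and 250 CPM (-4.83, SE 0.70, adjusted p = 0.000604). Of all genes tested in this cluster, 1.14% were called higher and 2% lower. The groups did not overlap in any of the 3 genes, as for 18.4% of the genes tested that were higher in each Tet-TKO library and 20.6% that were lower. The cluster differed in make-up between libraries. The trophoblast gene Elf5 was at 0 in the Tet-TKO libraries and at 58.0 and 191 CPM in WT host cells, and the summed germ cell markers were at 2209, 2682 and 1705 CPM against 2502 and 177 CPM. Summed extraembryonic ectoderm markers were at 262 to 594 CPM in Tet-TKO and at 448 and 829 CPM in WT host cells. WT host library 2, with the lowest germ cell markers, also had the lowest Pou5f1 (39.2 CPM, against 489 CPM in WT host library 1 and 605 to 688 CPM in Tet-TKO) and the lowest Nanog (4.78 CPM, against 25.2 to 51.5 CPM in the other 4). Without that library the adjusted p was 0.064 for Dppa5a (log2 fold change 1.76), 0.0874 for Utf1 and 0.287 for Pou3f1 (-3.51). Leaving out Tet-TKO library 1, 2 or 3 raised the adjusted p of Dppa5a to 0.0204, 0.0299 and 0.0172 and that of Utf1 to 0.0442, 0.0205 and 0.0477. The calls of Dppa5a and Utf1 each stood in 5 of 16 alternatives and that of Pou3f1 in 12 of 16. For Pou3f1 the adjusted p was 0.0155 without Tet-TKO library 2, and without library 3 no Pou3f1 UMI is left in the Tet-TKO cells of the fit, so that no fold is given. Sox2 was at 187, 292 and 214 CPM against 141 and 57.4 CPM in these cells (adjusted p = 0.0165), and Zfp42 at 0, 8.58 and 20.2 CPM against 49.7 and 64.1 CPM (adjusted p = 0.017). The part of the cluster's make-up in these calls was not tested.

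Most WT host UMIs of Utf1 and Zfp42 at E8.5 lay in host trophoblast or in cluster 40. In WT host library 1, 74.7% of the Utf1 UMIs and 57.5% of the Zfp42 UMIs lay in its 136 ExE ectoderm-like cells, of which WT host library 2 had 1 and the Tet-TKO libraries none. In WT host library 2, 70.8% and 66.3% lay in cluster 40. Without ExE ectoderm-like cells the WT host libraries had Zfp42 at 0.914 and 0.797 CPM, near the Tet-TKO libraries. In the test without erythroid-like and extraembryonic-like cells the log2 fold change of Zfp42 was -0.02 and that of Utf1 -1.16. Without ExE ectoderm-like cells and cluster 40, Utf1 averaged 1.18 CPM in Tet-TKO and 1.81 CPM in WT host cells. In the Tet-TKO libraries 26.7 to 28.4% of the Zfp42 UMIs were in Surface ectoderm-like cells. There Zfp42 was at 2.25 ± 0.415 CPM (SD, n = 4) in Tet-TKO and 0.933 ± 0.390 CPM (n = 2) in WT host cells (log2 fold change 1.27, SE 0.42, adjusted p = 0.254).

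Sox2 and Pou3f1, which remain on in the neural plate, had log2 fold changes below 0 in most classes, with no call of Sox2 in the main edgeR fit or by DESeq2. Sox2 had a log2 fold change below 0 in 27 of 31 classes (median -0.60). In 17 of the 31 the unadjusted p of edgeR was under 0.05 in either direction, beside 11.8% of all pairs. These include cluster 40 and Erythroid-like cells, in which Sox2 was higher in Tet-TKO (log2 fold changes of 1.60 and 1.375). Every Tet-TKO library lay below every WT host library in 17 classes, beside 14.1% of all pairs tested. The classes come from the same libraries, so that such counts over classes are not independent. In the midbrain and hindbrain boundary-like class Sox2 was at 136, 170, 118 and 124 CPM in Tet-TKO and at 264 and 240 CPM in WT host cells (log2 fold change -0.86, SE 0.18, adjusted p = 0.0564). In Forebrain-like cells it was at 246, 254, 161 and 178 CPM against 411 and 292 CPM, and in Surface ectoderm-like cells at 56.5, 55.9, 49.1 and 24.5 CPM against 99.7 and 112 CPM. In all 3 classes each Tet-TKO library lay below both WT host libraries. Spinal cord-like cells, at 198, 212, 189 and 184 CPM against 241 and 224 CPM, showed the smaller gap. Pou3f1 was below 0 in 28 of 30 classes (median -0.48), and every Tet-TKO library was below every WT host library in 10 of them, with the same limit. In Forebrain-like cells Pou3f1 was at 185, 185, 122 and 129 CPM against 287 and 186 CPM.

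Lin28a was tested in all 32 classes and was not called in any by the main edgeR fit, with 2 at an unadjusted p under 0.05. Its log2 fold change was above 0 in 25 of 32 classes, with a median of 0.17. In NMP-like cells Lin28a was at 225, 210, 239 and 249 CPM in Tet-TKO and at 225 and 212 CPM in WT host cells, which overlapped. In Erythroid-like cells, where it is low, Lin28a was at 59.4 and 73.5 CPM against 26.4 and 22.7 CPM (log2 fold change 1.09, SE 0.18, adjusted p = 0.0245), and this pair was called by DESeq2. Slc7a3 was tested in 8 classes, 3 above 0 and 5 below, and Nanog in 4, 2 in each direction. Neither was called in the main edgeR fit or by DESeq2 (0 and 1 at an unadjusted p under 0.05). Dppa5a was above 0 in 14 of 15 classes (median 1.55), which carries the same limit as for Dppa4. In WT host cells Dppa5a was highest outside cluster 40 in Parietal endoderm-like cells, at 72.4 and 54.1 CPM (37 and 9 cells).

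Shares of cells with a UMI of a gene rest on the same UMIs as the library sums, over all classes, and are no separate support. After each cell was thinned to 5000 UMIs, 3.21, 3.72, 1.26 and 2.07% of the Tet-TKO cells and 0.714 and 0.313% of the WT host cells had a Dppa4 UMI at E8.5. Without thinning the means were 8.05% and 1.37% for Dppa4. In WT host Erythroid-like cells, given as a level of background, the thinned share for Dppa4 was 0.494 and 0.295%, with cell medians of 19700 and 16020 UMIs, so that WT host library 2 lay near it. For Pou5f1 the shares were 8.49, 6.44, 3.01 and 4.14% against 6.36 and 2.18%, down from 68.7% in Tet-TKO and 38.0% in WT host cells at E7.5, and 1.15 and 0.442% in the WT host Erythroid-like cells. The means for Pou5f1 at E8.5 without thinning were 16.6% and 9.38%. Nanog UMIs were found in 0.755, 0.465, 0.180 and 0.218% of Tet-TKO and 0.428 and 0.168% of WT host cells, and in 0 of 607 and 0 of 1357 Erythroid-like cells. Taken as 3 over the number of cells, the latter allow shares of up to 0.494 and 0.221%. The shares for Slc7a3, 1.20 to 2.06% in Tet-TKO and 2.58 and 1.53% in WT host cells, did not exceed the higher share of Erythroid-like cells (2.64 and 1.695%), so that no difference between the genotypes is read from them. Within classes Slc7a3 was at 55.4 and 30.4 CPM in Tet-TKO Epiblast-like cells and 40.3 and 52.1 CPM in those of WT host, above the 5.10 and 3.24 CPM of the WT host Erythroid-like cells. Thinning left out 76 to 738 cells per library. In the WT host Erythroid-like cells Lin28a was found in 10.1 and 7.001%, against 45.8 to 56.3% of all Tet-TKO and 41.2 and 37.4% of all WT host cells.

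Cells with several of the genes at once were rare at E8.5 in both genotypes. UMIs of at least 5 of the 10 genes were found in 564 of 4772 Tet-TKO cells (11.8%) and 598 of 6662 WT host cells (8.98%) at E7.5. At E8.5 they were found in 16, 19, 5 and 3 Tet-TKO cells and in 21 and 11 WT host cells. These were 0.237, 0.210, 0.225 and 0.326% against 0.272 and 0.132%, with overlapping binomial intervals (exact Clopper-Pearson, 95%) such as 0.135 to 0.384% in Tet-TKO library 1 and 0.169 to 0.416% in WT host library 1. No cell at E8.5 had 7 or more of the genes, against 45 and 17 cells at E7.5. The E7.5 cells lay mainly in the Epiblast-like class in Tet-TKO (411 cells) and in the cluster led by Elavl3 (291 cells) and the ExE ectoderm-like class in WT host. At E8.5, 18 of the Tet-TKO cells were Epiblast-like and 15 lay in cluster 40, of which 13 also had at least 3 germ cell markers. In WT host 8 lay in cluster 40, 3 of them with germ cell markers, 5 were Spinal cord-like, and 4 each were Epiblast-like, ExE ectoderm-like, Forebrain-like and NMP-like. The shares of such cells overlapped between the genotypes. The intervals cover counting error within a library only, and a difference between the genotypes was not tested.

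**Figure D5:**
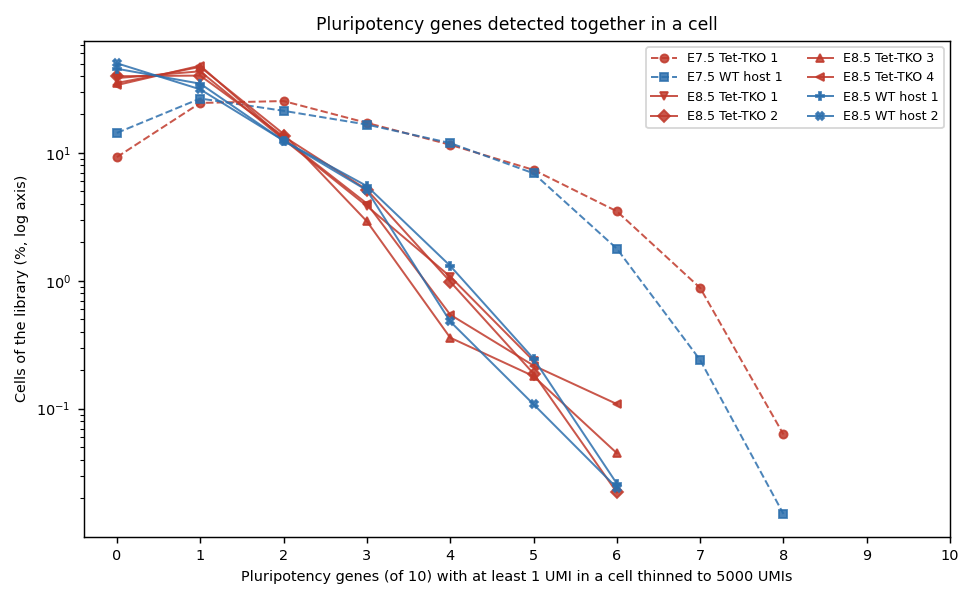
Share of cells, in percent on a log axis, by the number of the 10 genes with a UMI in the cell after thinning to 5000 UMIs, with 1 line per library and shares of 0 not drawn. The E8.5 libraries of both genotypes lie together and end at 6 genes or fewer, and the E7.5 libraries extend further.

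The 32 other genes of a pluripotency list were measured in the same fits. Over whole libraries all 32 were tested and none was called by edgeR, beside 0.588% of all genes called higher and 2.05% lower, with a median log2 fold change of -0.07. At an unadjusted p under 0.05, 4 were higher and 6 lower in Tet-TKO, beside 12.2% and 14.5% of all genes. DESeq2 called Gdf3 and Dppa3 higher and Foxd3, L1td1, Tfcp2l1 and Nr0b1 lower, beside 2.12% and 4.74% of all genes. Nr0b1 is a leading gene of the ExE ectoderm-like class at E7.5, and had 8, 2, 3 and 0 UMIs in the E8.5 Tet-TKO libraries, which have no cells of that class, and 143 and 33 UMIs in the WT host libraries, which have 136 and 1. The part of these cells in its level was not tested. Within classes 26 of the 32 genes gave 455 pairs, of which 1 was called higher (0.22%, beside 0.237% of all pairs) and 4 lower (0.879%, beside 0.355%), with a median of -0.04. Phc1, a Polycomb repressive complex gene, was higher in cluster 40 (log2 fold change 2.72, adjusted p = 0.00494), and Klf2, a factor of the naive state, was lower in cluster 42 (-3.34, adjusted p = 0.000271). L1td1 and Tbx3 were lower in cluster 31 (adjusted p = 0.00925 and 0.0076), and Mycn was lower in Neural crest-like cells (adjusted p = 0.00558). Of the genes without a call, Gdf3 had a log2 fold change of 2.96 in the 1 class in which it was tested (adjusted p = 0.0227), Foxd3 a median of -1.56 over 4 classes, and the germ cell gene Dppa3 a median of 1.85 over 3 classes. Dppa2, which lies beside Dppa4 and acts with it, was not tested in any class.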

How the data were processed

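The authors deposited unnormalized UMI counts of every gene in each barcode for the 8 libraries, made after alignment to mm10 with an added tdTomato sequence using Cell Ranger (software_version 3.1.0 in the headers of the deposited counts). Barcodes under 1500 UMIs, over 30% mitochondrial UMIs or over 35% ribosomal protein UMIs were left out. They were clustered per stage with scanpy 1.11.5 and leidenalg 0.10.2 (2500 variable genes, 50 components, mutual nearest neighbours between libraries, resolution 2), leaving out 45 genes, among them the 10 genes and the pluripotency list. Clusters were named where at least 3 markers of a class were raised and their mean led that of the next class by 0.2 on the log2 scale. Clusters whose 10 leading genes held more markers of another class (cluster 17 among them), or that had low UMI counts and no marker of the class among those genes, stayed unnamed. The choice of these limits came after a look at the clusters. Doublets were not removed, and removal with Scrublet was an alternative.

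Counts were summed per library, or per class and library where at least 10 cells were present, and tested with edgeR 4.0.16 in R 4.3.3 (filterByExpr, TMM, two-sided quasi-likelihood test, Benjamini-Hochberg adjustment over all genes). A call was an adjusted p under 0.01 and an absolute log2 fold change of at least 1. The SE printed with a log2 fold change of edgeR was calculated back from the test. It is the absolute log2 fold change divided by the square root of the quasi-likelihood F statistic. DESeq2 1.42.0 was an alternative. Both tools were tested on simulated data. CPM are UMIs scaled by the total of the kept cells. To compare shares of cells, cells were thinned to 5000 UMIs, and intervals are 95% exact intervals that cover counting error only. A group with no UMI was set to a floor of 3 UMIs.

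The 10 genes and the lists were chosen with earlier results of these data known. The genes named are the 10 and, of the 32 others, the 8 called in the most classes, with ties ordered by the median absolute log2 fold change. Nr0b1, Tfcp2l1, Dppa2, Tdgf1 and Dnmt3b fall outside this rule and were named after their values were seen. Replicate numbers of the 2 genotypes were not taken as pairs. Of the alternatives, the sums or joint omission of Tet-TKO libraries 1 and 2 or 3 and 4, and the levels without named classes, were chosen after seeing the data.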

Additional observations from a re-analysis of the deposited data

Results flagged for a closer look

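Sox2 in Tet-TKO library 1 lay apart from the other E8.5 Tet-TKO libraries. Its library sum was 31.6 CPM, against 48.8 to 50.7 CPM in the other 3, and the gap made up 0.898 of the group's range. After thinning, 11.02% of the cells of Tet-TKO library 1 had a Sox2 UMI, against 15.9 to 16.1% in the others (0.953 of the range). Chance marks about 1 in 20 groups in this way, and 23 groups of 4 libraries were examined.

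Dppa4 was 4.86 times as high in Tet-TKO as in WT host cells at E8.5 by mean library sums, whereas the ratio at E7.5 was 0.970. The 4 Tet-TKO libraries at E8.5 all lay above the WT host libraries and the single E7.5 library lay below. The difference between the stages was not tested. Without ExE ectoderm-like cells the levels were 21.7 CPM in Tet-TKO and 2.95 CPM in WT host cells at E7.5, and 6.25 and 0.871 CPM at E8.5 (ratio 7.17), so that the ratio was above 1 at both stages.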

How the results depend on the processing

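Over whole libraries edgeR called 0 of the 10 genes in each direction. DESeq2 called 1 higher and 1 lower, the replicate block 3 higher and 1 lower, leaving out Tet-TKO libraries 1 and 2 together 1 lower, and an adjusted p of 0.05 with no minimum fold change 2 lower. Log2 fold changes changed sign for Pou5f1 (-0.12 without WT host library 2, -0.37 without Tet-TKO libraries 1 and 2, -0.93 with 20 cells of each class), Nanog (-0.06 without Tet-TKO library 1, -0.067 without WT host library 2, -0.62 without Tet-TKO libraries 1 and 2) and Slc7a3 (0.17 with the block, 0.11 without WT host library 1, 0.15 without Tet-TKO libraries 3 and 4). With single libraries left out they ran from -0.12 to 1.43 for Pou5f1, -0.067 to 1.21 for Nanog, -0.67 to -0.41 for Sox2, -2.73 to -1.37 for Utf1, 1.75 to 2.97 for Dppa4, 0.81 to 2.13 for Dppa5a, -1.90 to -0.55 for Zfp42, 0.38 to 0.48 for Lin28a, -0.50 to 0.11 for Slc7a3 and -0.82 to -0.62 for Pou3f1.

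Of gene and class pairs, 6 were called higher and 2 lower. Higher calls were 18 with no filter on low counts, 24 with the block, 13 without Tet-TKO libraries 3 and 4, 2 with no correction between libraries, 10 at an adjusted p of 0.05, and 2 to 8 with 1 library left out. Lower calls were 8 with no filter, 7 with the block, 17 without Tet-TKO libraries 1 and 2, 1 with DESeq2, with sums of Tet-TKO libraries, with at least 3000 UMIs per cell, with tdTomato matching the sort or with doublets removed, 0 with no correction or at least 30 cells, and 0 to 3 with 1 library left out. Classes with Dppa4 called were 5, and 11 with no filter, 14 with the block, 11 without Tet-TKO libraries 3 and 4, 2 with no correction and 2 to 5 with 1 library left out. With the block they included NMP-like, Spinal cord-like and Surface ectoderm-like cells, outside the endothelial and blood-forming classes. Unthinned shares of cells differed from thinned ones for all 10 genes in both genotypes. The cause of these changes was not tested.

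The authors compared cell type proportions of each Tet-TKO sample with those of a matching WT host. The labels do not say which libraries match, or that equal replicate numbers mark a shared pool of embryos. The correlation of deviations was 0.314 for the pair numbered 1 and -0.0445 for the pair numbered 2, and with 2 WT host libraries such values mirror each other and decide nothing. Over all genes the block gave 1700 calls against 556.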

Other observations

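Within the 5 endothelial and blood-forming classes summed together, other genes of the 10 were measured beside Dppa4. Zfp42 was at 0.543, 0.880, 0.470 and 0.885 CPM in Tet-TKO (10, 15, 4 and 4 UMIs) and at 0.0253 and 0.0411 CPM in WT host cells (1 and 2 UMIs). Lin28a was at 73.3 ± 5.83 CPM (SD, n = 4) in Tet-TKO and 29.6 ± 5.53 CPM (n = 2) in WT host cells, and Dppa5a at 3.04 ± 0.686 and 0.910 ± 0.503 CPM. Pou5f1, at 2.84 ± 0.512 and 2.54 ± 1.56 CPM, overlapped between the genotypes. These sums were not tested, and the classes were put together after the calls of Dppa4 had been seen. The mix of classes differs between the genotypes, and WT host cells were mostly cluster 2 and Erythroid-like, in which Lin28a was at 7.62 and 24.6 CPM. Within Endothelium-like cells, Haematoendothelial progenitor-like cells and cluster 17 the ratio of the Lin28a means was 1.16, 1.18 and 1.19.

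In E8.5 Epiblast-like cells the epiblast marker Tdgf1 was at 92.8 CPM in Tet-TKO library 1 and 149 CPM in WT host library 1, and had no UMI in library 2 of either genotype (111 and 23 cells). Another epiblast marker, Dnmt3b, was at 482 and 455 CPM in the Tet-TKO libraries and 455 and 563 CPM in the WT host libraries of the same cells.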
